A study of Mus musculus with 194 samples.

Results

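The data are a time course of gene expression in the limbic cortex (LCtx, medial prefrontal and cingulate cortex) of mice that received 1 dose of cocaine after abstinence, called the challenge. The members were chosen by their labels: every LCtx library of the challenge groups, 14 libraries in all, which came from 13 of the 166 tissue samples of the series. Male C57BL/6OLAHSD mice, 6 to 7 weeks old at arrival, had received 3 daily habituation injections of saline, then cocaine at 20 mg/kg once a day for 5 days and were then left without drug for 21 days. The 2 mice of the 0 hr group were taken from the home cage without an injection, and the other mice were taken 1 hr (4 mice), 2 hr (4 mice) or 4 hr (3 mice) after a further dose of 20 mg/kg. All 4 groups therefore share the earlier cocaine and the abstinence. Per the study's methods, locomotion was recorded in an open-field arena after the injections, whereas the 0 hr mice came from the home cage. No group received a saline injection on the last day. The effects of cocaine, of the injection and of the arena therefore cannot be told apart.

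Immediate-early genes (IEGs) are transcribed within minutes of neuronal activity without need of new protein. Many encode transcription factors, such as the AP-1 subunits of the Fos and Jun families and the zinc-finger Egr proteins, and others encode effectors that act at synapses or inhibitors that limit the signal. In the cortex they are widely used as markers of recently active neurons, and cocaine is known to induce them across the reward circuitry.

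In the challenged LCtx, 6 genes rose 1 hr after cocaine, each by about 1 log2 unit, and none of them was called at 2 or 4 hr against 0 hr. They were *Fos* and *Junb*, which encode AP-1 subunits, *Egr4*, a transcription factor of the Egr family, *Arc*, a regulator of AMPA receptor traffic at synapses, *Gadd45b*, a stress- and activity-induced gene linked to DNA demethylation, and *Arl4d*, a small GTPase of the ADP-ribosylation factor family. The sequences upstream of these genes are shown first, because these genes carry the result. RefSeq starts on GRCm38.p6 were matched for 13 of the 15 genes given by mouse below, and *Arc* and *Gh* were not matched. The other 5 of the 6 genes called at 1 hr each had a single start. The windows hold the 250 bases before the start, 5′ to 3′ on the strand of the gene, and capitals mark the cAMP response element (CRE) TGACGTCA or its half-site TGACG, on either strand.
Fos (chr12:85473640-85473889, plus strand): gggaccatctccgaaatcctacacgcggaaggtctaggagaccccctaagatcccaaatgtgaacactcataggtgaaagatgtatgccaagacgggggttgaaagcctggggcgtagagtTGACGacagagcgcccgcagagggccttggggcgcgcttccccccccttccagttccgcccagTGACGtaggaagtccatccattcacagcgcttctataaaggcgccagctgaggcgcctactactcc
Junb (chr8:84978749-84978998, minus strand): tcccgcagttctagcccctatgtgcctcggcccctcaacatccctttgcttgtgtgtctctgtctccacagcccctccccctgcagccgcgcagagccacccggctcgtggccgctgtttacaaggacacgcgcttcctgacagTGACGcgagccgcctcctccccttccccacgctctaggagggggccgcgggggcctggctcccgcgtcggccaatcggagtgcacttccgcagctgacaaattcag
Egr4 (chr6:85513590-85513839, minus strand): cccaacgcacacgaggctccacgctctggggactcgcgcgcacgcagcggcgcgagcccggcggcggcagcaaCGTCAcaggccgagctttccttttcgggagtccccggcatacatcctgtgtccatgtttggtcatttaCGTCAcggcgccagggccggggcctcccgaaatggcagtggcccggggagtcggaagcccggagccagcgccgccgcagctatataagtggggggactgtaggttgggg
Gadd45b (chr10:80929841-80930090, plus strand): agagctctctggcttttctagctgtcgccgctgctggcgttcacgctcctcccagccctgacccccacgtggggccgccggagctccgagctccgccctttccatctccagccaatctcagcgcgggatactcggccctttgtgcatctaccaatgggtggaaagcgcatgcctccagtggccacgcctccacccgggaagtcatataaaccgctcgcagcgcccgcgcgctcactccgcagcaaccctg
Arl4d (chr11:101665291-101665540, plus strand): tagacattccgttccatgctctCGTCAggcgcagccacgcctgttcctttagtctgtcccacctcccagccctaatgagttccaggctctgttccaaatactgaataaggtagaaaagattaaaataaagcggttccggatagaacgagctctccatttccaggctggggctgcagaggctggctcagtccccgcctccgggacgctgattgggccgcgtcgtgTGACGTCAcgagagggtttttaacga
The full CRE contains the half-site on both strands, so that the matches overlap. The *Arl4d* window held the full CRE, which 1.55% of 32851 windows of this length hold, and the windows of *Fos*, *Junb*, *Egr4* and *Arl4d* held the half-site, which 17.8% hold. These letters were not in the *Gadd45b* window. The CArG box, the core of the serum response element, was in none of the 5 windows and in 1.47% of all windows. These matches describe letters, not bound sites.

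Depth per mouse ran from 1193306 to 5629437 counted reads. The 0 hr replicate 1 was sequenced in run0006 and run0215 and its counts were summed, and each other mouse came from 1 of these runs, with both runs present at every time point. Replicate 3 of 2 hr had the fewest reads and stood apart on the first principal component (score 51.4, against -11.9 to 3.05 in the other 12 mice). Markers of cortical excitatory neurons, such as *Slc17a7* and *Tbr1*, summed to between 4419 and 5076 reads per 1000000 counted reads (CPM) in every mouse. Those of striatal neurons differed by run. They summed to between 742.3 and 778.9 CPM in the run0006 mice and between 608.8 and 670.8 CPM in the run0215 mice. The mouse sequenced in both was at 692.5 CPM. Ependymal markers summed to at most 15.3 CPM. Choroid plexus and meningeal markers, such as *Ttr*, differed by run: they summed to between 103.6 and 124.5 CPM in the run0006 mice, between 241.2 and 325.4 CPM in the run0215 mice and 169.5 CPM in the mouse sequenced in both, and each time point after 0 hr held mice of both kinds. No pair of libraries differed by as little as sampling noise allows. The labels give replicates without stating more, and the p-values measure the spread between these samples. In bulk tissue, fewer cells of a type and less RNA per cell cannot be told apart.

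A gene was called where its Benjamini-Hochberg adjusted p in edgeR's quasi-likelihood test was under 0.05 and its fold change over 1.2, among 12178 genes tested. The comparison of 1 hr with 0 hr asked which transcripts responded early to the challenge. It called 6 genes, 0.0493% of those tested, all of them higher. At an unadjusted p under 0.05, 444 genes (3.65%) differed, 231 of them higher. DESeq2 called 5 genes, without *Arc*.

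*Junb* had the smallest adjusted p. Its normalised read count was 176.5 and 190.0 CPM in the 0 hr mice, and 466.7, 347.1, 456.3 and 422.9 CPM in the 1 hr mice. Every 1 hr mouse was above both 0 hr mice. The log2 fold change was 1.15 ± 0.12 (SE), a fold of 2.22 (adjusted p = 2.79e-07). *Fos* was at 27.2 and 32.3 CPM at 0 hr and at 81.9, 47.9, 70.9 and 62.6 CPM at 1 hr. The groups did not overlap, and the lowest 1 hr mouse came from run0215. The log2 fold change of *Fos* was 1.16 ± 0.22 (adjusted p = 0.00877).

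*Arc* lies at chr15:74669081-74672570 (GRCm38.p6) and was at 106.9 and 158.1 CPM at 0 hr. At 1 hr it was at 293.4, 264.4, 274.9 and 281.4 CPM, a narrow range well above both 0 hr mice. Its log2 fold change was 1.05 ± 0.18 (adjusted p = 0.00456). *Egr4* was at 86.8 and 68.9 CPM at 0 hr and at 188.6, 133.3, 181.1 and 114.2 CPM at 1 hr. The groups did not overlap, and the pair of mice from run0006 was higher than the pair from run0215 at 1 hr. *Egr4* changed by 0.94 ± 0.15 (adjusted p = 0.000987).

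*Gadd45b* was at 27.7 and 32.3 CPM at 0 hr and at 53.5, 53.9, 54.2 and 76.3 CPM at 1 hr. Of the 1 hr mice, 3 were nearly equal and replicate 4 stood above them. The log2 fold change was 1.03 ± 0.18 (adjusted p = 0.00461). *Arl4d*, the least abundant of the 6, was at 12.4 and 13.8 CPM at 0 hr and at 35.82, 25.03, 33.36 and 32.84 CPM at 1 hr. Its groups did not overlap and it had the largest change of the 6 genes, 1.28 ± 0.23 (adjusted p = 0.0062).

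The groups of these 6 genes did not overlap, which largely fixes the sign of a difference within a run, and 0 hr replicate 1 entered the 0 hr value of both runs. On the log2(CPM + 1) scale, the difference of *Junb* at 1 hr was 1.29 in run0006 and 1.12 in run0215. The corresponding differences of *Fos* were 1.63 and 0.76, and those of *Gadd45b* were 0.82 and 1.16. In run0006 the 0 hr value came from 1 library. The count rested on the 2 mice of the 0 hr group: without replicate 1 of 0 hr only *Junb* was called, and without replicate 2 of 0 hr 3 genes were called, *Junb*, *Arc* and *Ttr*, a choroid plexus gene that was lower at 1 hr. Either omission leaves 1 mouse at 0 hr, which is assumed to vary like the other groups. Without replicate 1 of 1 hr 4 genes were called, without *Arl4d* and *Fos*, and without replicate 4 of 1 hr 9 were called. With the run0215 libraries alone 4 genes were called, of which 3 were among the 6: *Fos*, *Egr4* and *Arl4d* were lost, and *Mgp*, a matrix protein gene, was added.

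**Figure D1:**
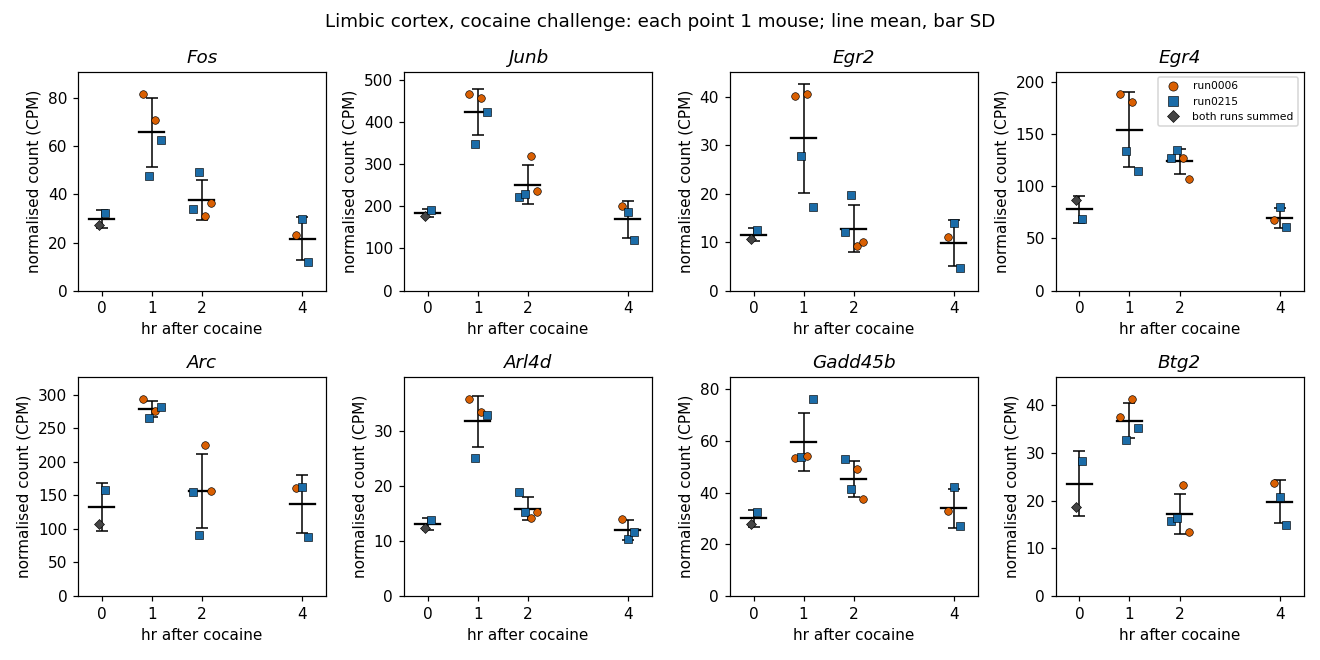
Normalised read count (CPM) of 8 genes in each mouse (vertical axes, linear from 0) against hr after the cocaine challenge (horizontal axes). Points are mice, shaped by sequencing run, lines are means and bars SD (2, 4, 4 and 3 mice). For *Junb* the 1 hr mice sit between 347.1 and 466.7 CPM, above every mouse of the other time points.

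*Egr2*, a zinc-finger transcription factor, was at 10.6 and 12.5 CPM at 0 hr. At 1 hr it was at 40.3, 27.7, 40.7 and 17.2 CPM, above both 0 hr mice but with a wide spread. Its log2 fold change of 1.45 ± 0.32 was larger than that of the called genes and missed the threshold (adjusted p = 0.0891). *Ddit4*, an inhibitor of mTOR signalling, was at 47.4 and 53.0 CPM at 0 hr and at 102.7, 88.7, 83.8 and 59.6 CPM at 1 hr. Its groups did not overlap either, and its change of 0.71 ± 0.15 also missed the threshold (adjusted p = 0.088). *Per1*, a component of the circadian clock that also responds to cAMP signalling, was at 99.8 and 84.0 CPM at 0 hr and at 130.9, 121.3, 153.6 and 105.6 CPM at 1 hr. Its log2 fold change was 0.45 ± 0.13 (adjusted p = 0.64).

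Of 30 IEG transcription factors tested, 3 were called at 1 hr, *Fos*, *Junb* and *Egr4*, against 0.0493% of all genes. In 16 of the 30, every 1 hr mouse was above both 0 hr mice, and in 1 every 1 hr mouse was below, against 5.35% and 5.53% of all genes tested. The median log2 fold change was 0.45 over the list and 0.00055 over all genes. This list and the others below were chosen with earlier results of these data known. Their comparison with all genes is therefore not an independent test. The activity-dependent neuronal factor *Npas4* had a value of 1.04 ± 0.37 and the zinc-finger factor *Zfp189* one of 1.08 ± 0.39, neither of them called. Of the same families, *Egr3* had a value of 0.08 ± 0.11 and *Jund* one of 0.01 ± 0.12.

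Of 29 feedback inhibitors and growth arrest genes tested, 2 were called at 1 hr, *Arl4d* and *Gadd45b*, against 0.0493% of all genes. *Arl4d*, a small GTPase, is neither a known feedback inhibitor nor a growth arrest gene. In 12 of the 29 every 1 hr mouse was above both 0 hr mice and in 1 every mouse was below, against 5.35% and 5.53% of all genes. As the list was chosen with earlier results known, these shares are not an independent test. The list's median log2 fold change was 0.38. *Errfi1*, an inhibitor of the EGF receptor, had a value of 0.53 ± 0.16, and *Tiparp*, an ADP-ribosyltransferase, one of 1.05 ± 0.35, without a call. Of 25 synaptic and secreted effectors, *Arc* was the gene called and the 1 gene above 0 hr in every mouse, a share near the 5.35% of all genes, and the list's median was -0.016. *Bdnf*, the neurotrophin, had a value of -0.18 ± 0.15 and *Nptx2*, a secreted protein that clusters AMPA receptors, one of -0.17 ± 0.15.

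**Figure D2:**
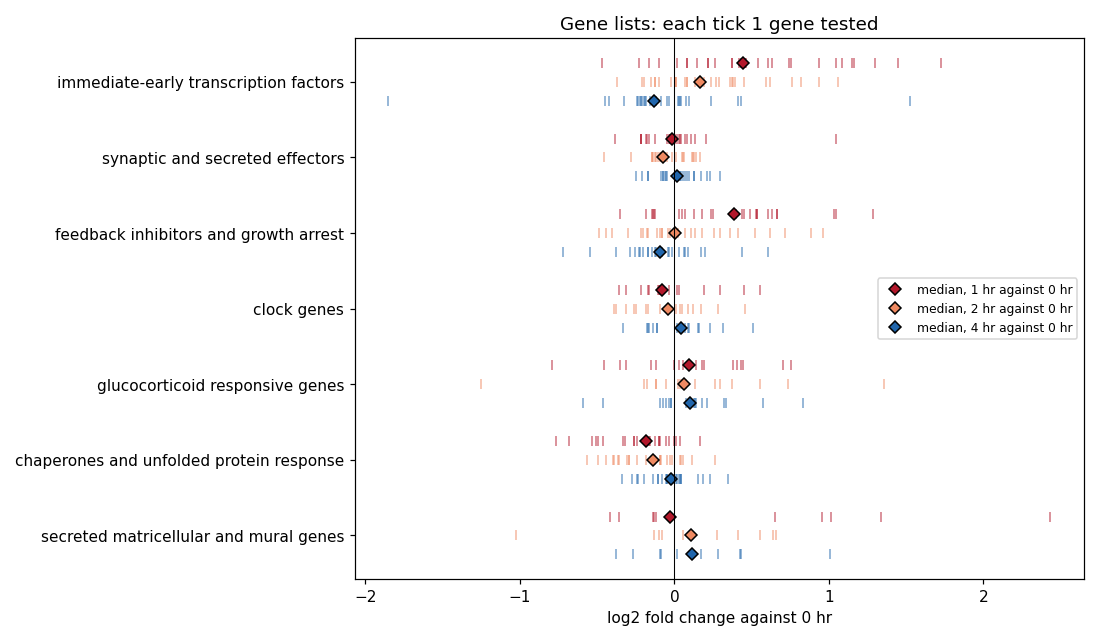
Log2 fold change against 0 hr (horizontal axis) of every tested member of 7 gene lists (vertical axis) at 1, 2 and 4 hr, with 1 tick per gene and a diamond at the list's median. The medians of the IEG transcription factors lie at 0.45, 0.16 and -0.13 at the 3 times, and those of the feedback inhibitors at 0.38, 0.01 and -0.09.

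Between 1 and 2 hr after cocaine, 6 genes fell and none rose, 0.0493% of those tested, and 514 genes (4.22%) were at an unadjusted p under 0.05. *Junb* dropped by 0.77 ± 0.10 on the log2 scale (adjusted p = 1.67e-05), to 221.4, 228.0, 318.9 and 236.8 CPM at 2 hr. Every 2 hr mouse was below every 1 hr mouse. *Arc* dropped by 0.88 ± 0.14 (adjusted p = 0.00209), to 154.1, 91.0, 225.4 and 156.2 CPM, again without overlap with 1 hr. *Arl4d* dropped by 0.99 ± 0.19 (adjusted p = 0.0155), to 18.9, 15.2, 14.2 and 15.3 CPM.

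The other genes that fell were not called at 1 hr against 0 hr. *Btg2*, an antiproliferative gene, was at 18.7 and 28.4 CPM at 0 hr, at 37.7, 32.6, 41.4 and 35.4 CPM at 1 hr and at 15.7, 16.3, 23.4 and 13.4 CPM at 2 hr. Its 2 hr mice were below all 1 hr mice and their range took in the lower 0 hr mouse (-1.16 ± 0.19, adjusted p = 0.00209). *Nr4a1*, an orphan nuclear receptor, was at 90.3 and 109.4 CPM at 0 hr, at 168.0, 134.9, 142.8 and 140.4 CPM at 1 hr and at 98.3, 73.5, 99.3 and 93.4 CPM at 2 hr, where it again lay in the range of 0 hr or below it (-0.69 ± 0.12, adjusted p = 0.00379). *Egr2* changed by -1.26 ± 0.26 (adjusted p = 0.0488), to 12.2, 19.8, 9.18 and 10.1 CPM, and its highest 2 hr mouse overlapped its lowest 1 hr mouse. This call of *Egr2* was lost in 11 of 23 alternative analyses. Of the IEG transcription factors, 2 were lower and 1 was higher in every 2 hr mouse than in every 1 hr mouse, and of the feedback inhibitors 6 were lower, against 1.16% of all genes lower and 1.07% higher. DESeq2 called 4 of the 6, without *Arc* and *Egr2*. Without replicate 4 of 2 hr *Junb* and *Arc* were called, and without replicate 1 of 1 hr *Junb*, *Arc* and *Btg2*. Within run0006 and run0215, the difference of 2 hr from 1 hr on the log2(CPM + 1) scale was -0.75 and -0.77 for *Junb*, -1.97 and -0.46 for *Egr2*.

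No gene was called at 2 hr against 0 hr by edgeR (0% of those tested, with 485 genes, 3.98%, at an unadjusted p under 0.05) or by DESeq2. Without replicate 2 of 0 hr *Ttr* was called. *Egr4* had 127.0, 134.6, 126.9 and 106.8 CPM at 2 hr, above both 0 hr mice, with a log2 difference of 0.62 ± 0.15 (adjusted p = 0.999). *Gadd45b* had 53.1, 41.2, 49.2 and 37.5 CPM, likewise above both 0 hr mice (0.62 ± 0.19). *Fosb*, an AP-1 subunit whose stable variant accumulates with repeated drug exposure, was at 39.9 and 46.1 CPM at 0 hr, at 71.6, 64.2, 75.4 and 57.1 CPM at 1 hr and at 74.7, 49.4, 81.8 and 60.7 CPM at 2 hr. Its values at 1 and 2 hr were alike in range, and both ranges lay above 0 hr. The difference of *Fosb* between 1 and 2 hr was -0.04 ± 0.15.

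Of the 30 IEG transcription factors, 6 were above 0 hr in every 2 hr mouse and none below, and of the 29 feedback inhibitors 5 were above and 1 below, against 5.32% and 5.49% of all genes. *Sertad1*, a regulator of cyclin-dependent kinase and transcription, had a larger value at 2 hr (0.72 ± 0.19) than at 1 hr (0.38 ± 0.19), and the difference between them was 0.33 ± 0.15 without a call. Among 18 genes that respond to glucocorticoids, 4 were above and 1 was below 0 hr in every 2 hr mouse, against 5.32% and 5.49% of all genes, and none was called. Of the 18, 6 had values under 0 at 2 hr, and the list's median was 0.06. *Fkbp5*, a co-chaperone of the glucocorticoid receptor, had a value of 0.74 ± 0.22 and *Tsc22d3*, which encodes the glucocorticoid-induced leucine zipper protein, one of 0.55 ± 0.15 at 2 hr. At 1 hr the same genes had values of 0.43 ± 0.23 and 0.18 ± 0.15.

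At 4 hr against 0 hr, edgeR again called no gene (0%, with 524 genes, 4.3%, at an unadjusted p under 0.05), and neither did DESeq2. Of the 30 IEG transcription factors, 1 was above 0 hr in every 4 hr mouse and none below, and of the feedback inhibitors 1 was above and 1 below, against 8.55% and 7.88% of all genes. *Junb* was at 201.5, 185.4 and 119.9 CPM, *Fos* at 23.1, 29.6 and 12.1 CPM and *Arc* at 161.2, 161.7 and 87.6 CPM at 4 hr. In all 3 genes replicate 3 was the lowest mouse and lay below both 0 hr mice, while the other mice lay within or close to the range of 0 hr. Between 2 and 4 hr 2 genes were called, 0.0164% of those tested, 1 of them higher (0.00821%), and 1153 genes (9.47%) were at an unadjusted p under 0.05. Of the IEG transcription factors 7 were lower in every 4 hr mouse than in every 2 hr mouse and of the feedback inhibitors 5, against 3.37% of all genes lower and 3.41% higher. *Egr4* dropped by 0.81 ± 0.13 (adjusted p = 0.00525), to 67.7, 80.1 and 61.4 CPM, with no overlap with 2 hr. *Pitpnm2*, a phosphatidylinositol transfer protein, was at 217.8, 217.5, 152.7 and 209.9 CPM at 2 hr and at 278.6, 291.4 and 297.3 CPM at 4 hr, a rise of 0.50 ± 0.09 (adjusted p = 0.031). It was at 282.4 and 231.8 CPM at 0 hr, so that its 4 hr mice were close to the higher 0 hr mouse. Within run0006 and run0215, the difference of 4 hr from 2 hr on the log2(CPM + 1) scale was -0.77 and -0.89 for *Egr4*.

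The comparisons with 4 hr depended on which mice entered. In run0215, the 94 genes of ribosomal proteins took 4.84% and 5.10% of counts in the 4 hr mice (replicates 2 and 3) and 5.89% to 6.43% in the other mice sequenced in that run alone. The 85 genes of oxidative phosphorylation subunits took 3.35% and 3.67% in those 4 hr mice and 3.96% to 4.25% in the others. The 4 hr mouse of run0006 was at 5.21% and 3.71%, within the range of the other mice of its run. Both sets were chosen after their values were seen. Without that mouse (replicate 1 of 4 hr), 43 genes were called at 4 hr against 0 hr and 171 between 2 and 4 hr, and ribosomal protein genes such as *Rpl41* and *Rps29* were among the 43. With both run0215 mice left out instead, which leaves 1 mouse at 4 hr that is assumed to vary like the other groups, no gene was called in either comparison. Between 2 and 4 hr, leaving out replicate 1 or 2 of 2 hr, or replicate 3 of 4 hr, also left no call. Without replicate 3 of 2 hr 5 genes were called, with *Celsr3*, *Cldn5* and *Dlgap3* added, and without replicate 4 of 2 hr 4, with *Junb* and *Nr4a3* added. Without replicate 2 of 4 hr 7 were called, *Fos*, *Fosb* and *Junb* among them, and without replicate 1 or 2 of 1 hr *Egr4* alone. At 4 hr against 0 hr, *Ttr* was called without replicate 2 of 0 hr and *Gh* without replicate 2 of 4 hr. DESeq2 called 27 genes between 2 and 4 hr.

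**Figure D3:**
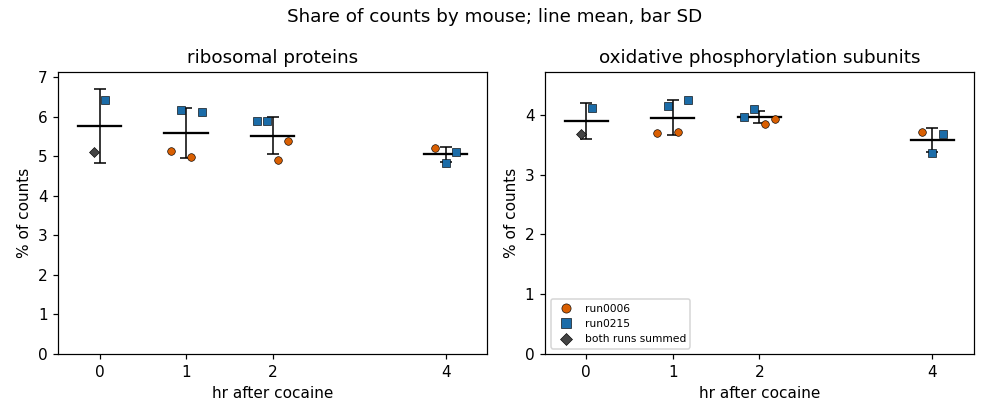
Share of counts (vertical axes, % from 0) taken by genes of ribosomal proteins and of oxidative phosphorylation subunits in each mouse against hr after cocaine, with points shaped by run, lines at means and bars for SD. The run0215 mice at 4 hr, at 4.84% and 5.10% for ribosomal proteins, lie below the other run0215 mice.

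A test over all 4 time points asked which genes changed at any time. It called 13 genes, 0.107% of those tested, and 784 genes (6.44%) were at an unadjusted p under 0.05. DESeq2 called 15 genes, and 10 were shared. Besides the 6 genes of 1 hr, the 13 were *Egr2*, *Btg2*, *Nr4a1*, *Ddit4*, *Fosb*, *Sdf2l1* and *Gh*. *Per1* and *Pitpnm2* were just outside (adjusted p = 0.0547 for both), and *Ddit4* and *Fosb*, just inside (adjusted p = 0.0419), lost their calls in 11 of 23 alternative analyses each. In 11 of the 13 the fitted level was highest at 1 hr, with log2 fold changes against 0 hr from 0.54 in *Nr4a1* to 1.45 in *Egr2*, and *Sdf2l1* and *Gh* were lowest at 1 hr. Without replicate 1 of 4 hr 80 genes were called, and *Fosb* and *Sdf2l1* were not among them. *Gh*, the growth hormone gene of the pituitary, rested on 1 mouse: its counts were 3 and 6 at 0 hr, 0, 1, 0 and 2 at 1 hr, 23, 5, 0 and 0 at 2 hr, and 0, 4 and 192 at 4 hr.

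**Figure D4:**
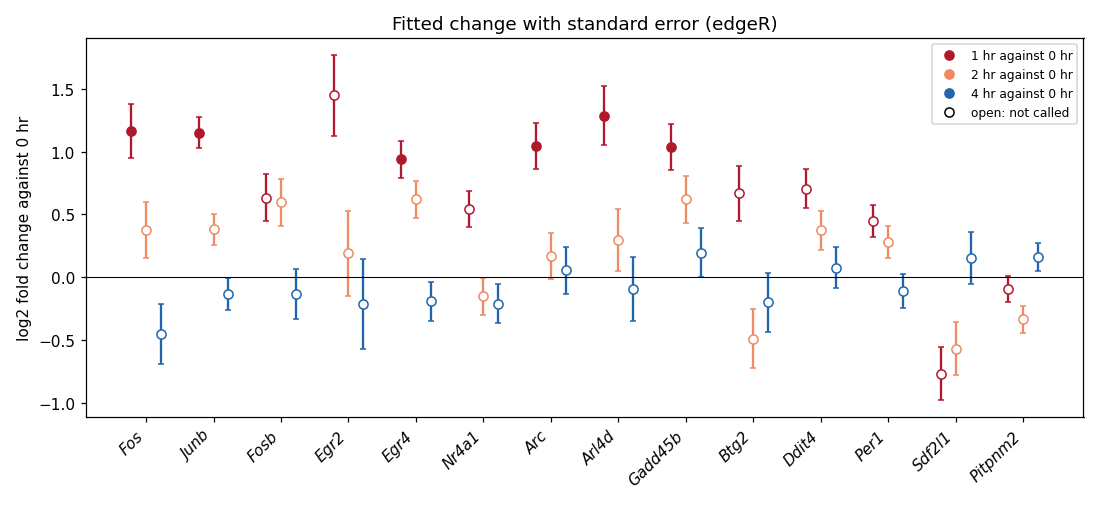
Fitted log2 fold change against 0 hr (vertical axis) with its standard error for 14 genes at 1, 2 and 4 hr (colours), with filled points where the gene was called. The 6 filled points are all at 1 hr, from 0.94 in *Egr4* to 1.28 in *Arl4d*.

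*Sdf2l1*, a component of the endoplasmic reticulum chaperone network, was at 33.75 and 21.97 CPM at 0 hr, at 29.2, 14.7, 17.4 and 14.7 CPM at 1 hr, at 15.7, 17.1, 32.6 and 24.1 CPM at 2 hr and at 49.7, 23.6 and 25.9 CPM at 4 hr. The ranges of the groups overlapped, and the run covariate entered the fitted value of -0.77 ± 0.21 at 1 hr. The call (adjusted p = 0.0419) was lost in 15 of 23 alternative analyses. Of 25 chaperone and unfolded protein response genes, 22 had values under 0 at 1 hr, 6 were below 0 hr in every 1 hr mouse and none was above, against 5.53% and 5.35% of all genes, and the median log2 fold change was -0.18. None was called at 1 hr. *Manf*, a secreted protein induced by stress of the endoplasmic reticulum, had a value of -0.53 ± 0.14, and *Hspa5*, which encodes the chaperone BiP, one of -0.32 ± 0.13. At 4 hr the list's median was -0.02.

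Genes of vessels gave uneven values. *Cyr61*, a matricellular protein and itself an IEG of non-neuronal cells, had a log2 difference of 2.43 ± 0.56 at 1 hr (adjusted p = 0.125). The smooth muscle genes *Tagln* (1.34 ± 0.32) and *Acta2* (1.01 ± 0.29) were also above 0 and not called. Without a filter on low counts, *Cyr61*, *Tagln* and *Acta2* were called at 1 hr. Without replicate 3 of 1 hr *Cyr61* and *Tagln* were called, and without replicate 4 of 1 hr *Tagln*. The pericyte genes *Rgs5* (-0.03 ± 0.17) and *Vtn* (-0.12 ± 0.16) were near 0. The 13 matricellular and mural genes summed to between 254.6 and 304.2 CPM at 0 hr and between 265.9 and 483.7 CPM at 1 hr, and the 11 blood cell markers to between 612.3 and 744.1 CPM at 0 hr and between 512.0 and 1249 CPM at 1 hr. Replicate 2 of 1 hr was the highest mouse for both, and the other 1 hr mice were between 265.9 and 319.2 CPM for the mural genes and between 512.0 and 671.9 CPM for the blood markers. The part of vessel and blood content in these values was not tested. Of 18 endothelial markers none was called, and 13 had values under 0 at 1 hr (median -0.09), 11 at 2 hr (median -0.02) and 3 at 4 hr (median 0.14). *Slc2a1*, the glucose transporter of the blood-brain barrier, had values of 0.53 ± 0.14 at 2 hr and 0.50 ± 0.15 at 4 hr, and *Cldn5*, a tight junction protein, one of 0.65 ± 0.16 between 2 and 4 hr, neither called.

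The response to the challenge was then compared with that to a first dose (acute) and to repeated cocaine, in 1 fit of 23 LCtx mice at 0, 1 and 2 hr. The acute 0 hr group held 3 mice, and every other acute or repeated group held 2. With groups this small, the lack of a call does not show that responses were alike. The acute 0 hr mice had never received cocaine, and the repeated groups were taken around the fifth daily dose, with the 0 hr mice 1 day after the dose before. The acute and repeated libraries came from runs of their own, so that levels cannot be told apart from runs, and each response was taken against its own 0 hr group. Among 12950 genes, edgeR and DESeq2 called no difference in the 1 hr response between challenge and acute (0%, 755 genes at an unadjusted p under 0.05) or between challenge and repeated cocaine (0%, 476 genes). The 2 hr response gave no call either (0% in both comparisons, 546 and 497 genes).

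*Junb* had a 1 hr response of 0.98 ± 0.11 after acute, 1.29 ± 0.13 after repeated and 1.16 ± 0.12 after challenge cocaine. The difference between challenge and acute was 0.18 with a 95% confidence interval from -0.14 to 0.51, and that between challenge and repeated cocaine -0.13 (-0.48 to 0.22). *Arc* responded by 1.10 ± 0.21, 1.52 ± 0.24 and 1.06 ± 0.22 in the same order, and its difference between challenge and acute was -0.04 (-0.65 to 0.57). Differences of either sign lie within these intervals. The *Fos* response was 1.53 ± 0.24, 2.01 ± 0.30 and 1.17 ± 0.24, and its difference between challenge and repeated cocaine, -0.84 (-1.63 to -0.06), did not pass the correction (adjusted p of 1). *Gadd45b* responded by 0.53 ± 0.17, 0.96 ± 0.19 and 1.05 ± 0.17, and its difference between challenge and acute, 0.52 (0.04 to 1.00), did not pass it either (adjusted p = 0.82). The *Arl4d* response was 1.23 ± 0.22, 0.58 ± 0.25 and 1.30 ± 0.23, and its difference between challenge and repeated cocaine, 0.73 (0.04 to 1.41), did not pass the correction (adjusted p of 1).

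**Figure D5:**
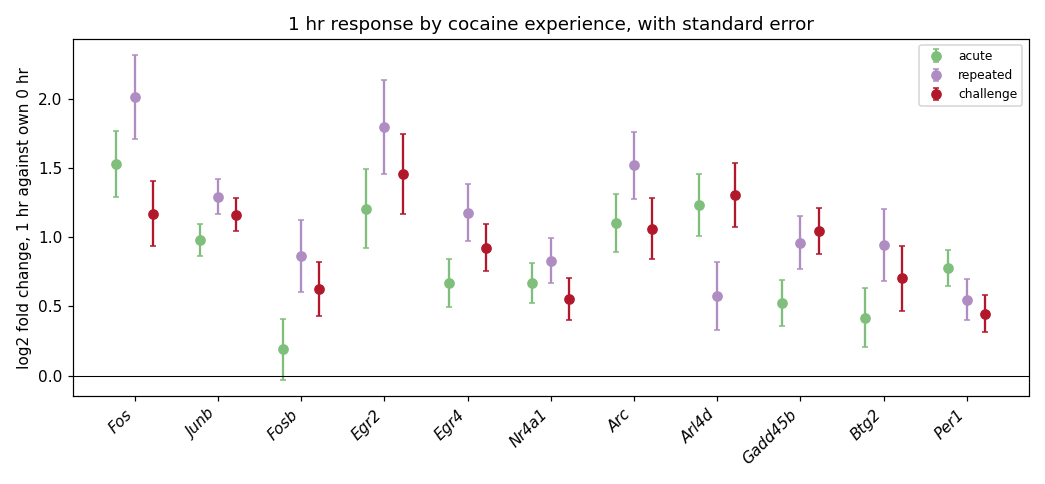
Log2 fold change at 1 hr against the 0 hr group of the same experience (vertical axis) with its standard error, for 11 genes after acute, repeated and challenge cocaine (colours). For *Junb* the 3 values are 0.98, 1.29 and 1.16, and no difference between challenge and the other experiences was called for any gene plotted.

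The genes with the smallest p for the 1 hr response between challenge and acute were *Epb41*, *Slc32a1* and *Hap1* (adjusted p = 0.234 for each). *Slc32a1*, the vesicular GABA transporter, was at 132.0 and 455.8 CPM in the acute 1 hr mice and between 117.2 and 150.2 CPM in the challenge 1 hr mice, and *Hap1*, huntingtin-associated protein, was at 188.6 and 427.5 CPM in the same acute mice. Acute replicate 2 was high for both. Without the other acute 1 hr mouse, replicate 1, 253 genes were called in this comparison, but the acute 1 hr group then held replicate 2 alone, which is assumed to vary like the other groups. At 2 hr, *Tsc22d3* was among the genes with the smallest p between challenge and acute, with a difference of 0.88 ± 0.24 (adjusted p of 1). The others were *Acss2*, *Mbd6* and *Catsperg1* (1 hr, repeated), *Ly6a* and *Btbd19* (2 hr, acute) and *Cbfa2t3*, *Fam133b* and *Slc8a3* (2 hr, repeated), with adjusted p from 0.815 to 1. Without replicate 1 of repeated 2 hr 1 gene was called in the last of these, again with 1 mouse left in that group.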

How the data were processed

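The authors deposited whole-number read counts per gene, not normalized, for 19363 genes. Per the labels and the study's methods, 3′ libraries from 100 ng RNA of each sample were collapsed by unique molecular identifier and trimmed of polyA, STAR placed the reads on GRCm38, and HTSeq gave the counts. Tool versions and the gene annotation are not given in the sources used here. Libraries under 1000000 reads had been removed and deeply sequenced ones down-sampled, which narrows the range of depth.

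Groups came from the sample labels. The libraries of 0 hr replicate 1 from both runs were summed. Counts were fitted with edgeR 4.0.16 in R 4.3.3 (filterByExpr, TMM scaling, quasi-likelihood F test, Benjamini-Hochberg adjustment over all genes tested), with the share of a mouse's counts from run0006 as covariate, and with DESeq2 1.42.0 as an alternative. The 4 time points shared 1 estimate of the spread. SE is that of the fitted log2 fold change. CPM values are scaled by TMM factors and are not adjusted for run. Within-run differences used a pseudocount of 1. A list member was called not overlapping where every mouse of 1 group lay above or below every mouse of the other. The scripts were tested on simulated data. Promoter windows and loci are from RefSeq (GRCm38.p6). Plots were drawn with matplotlib 3.10.9.

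The members and gene lists were chosen with earlier results of these data known. Values by mouse are given for the 10 genes with the largest increase and decrease called in each time comparison, for list members called in any of them or over all time points, and for *Fos*, *Junb*, *Egr2*, *Arc* and *Per1*. For each comparison of experiences, the genes with the 3 smallest p-values were considered. *Gh* and the sets of ribosomal protein and oxidative phosphorylation genes were singled out after their values were seen. Alternatives covered scaling, tool, filter, run, library choice, a replicate block, a fold change over 1.5 and leaving out each mouse.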

Additional observations from a re-analysis of the deposited data

Results flagged for a closer look

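In 4 of 72 groups of 4 mice, 1 mouse lay far from the others, by Dixon's test of the gap over the range. Chance alone flags about 1 in 20 such groups. *Gadd45b* was at 76.3 CPM in replicate 4 of 1 hr and between 53.5 and 54.2 CPM in the other 1 hr mice. *Junb* was at 319 CPM in replicate 3 of 2 hr and between 221 and 237 CPM in the others, and *Pitpnm2* was at 153 CPM in the same mouse and between 210 and 218 CPM in the others. That mouse had the fewest reads. The ependymal markers summed to 15.2 CPM in replicate 4 of 1 hr and to between 10.8 and 11.5 CPM in the others.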

How the results depend on the processing

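Of 891 alternative values of 39 results for single genes, 729 kept direction and side of the threshold, 103 lost the call, 47 gained it and 12 turned direction. *Junb* kept its calls at 1 hr against 0 hr and between 1 and 2 hr in all 23 alternatives. Without a filter on low counts, the calls were 15 at 1 hr, 2 at 2 hr and 2 at 4 hr against 0 hr, 10 between 1 and 2 hr, 37 between 2 and 4 hr and 41 over all time points, and 62, 2 and 3 for the response to challenge against acute at 1 hr, against repeated at 1 hr and against repeated at 2 hr. With run0215 alone (2 mice per time point) they were 4 at 1 hr, of which 3 were among the 6, 94 at 4 hr, 3 between 1 and 2 hr, 135 between 2 and 4 hr and 141 over all time points. With only the run0215 library of 0 hr replicate 1, 3 genes were called at 1 hr. Between 2 and 4 hr, DESeq2 called 27, the fit without run 0, a fold over 1.5 1, and the fit without both run0215 mice of 4 hr, an alternative added after seeing the data, 0. Leaving out each mouse gave 1 to 9 calls at 1 hr, 0 to 1 at 2 hr, 0 to 43 at 4 hr, 2 to 8 between 1 and 2 hr, 0 to 171 between 2 and 4 hr and 9 to 80 over all time points, where 80 came without replicate 1 of 4 hr. The differences between experiences ranged from 0 to 253 (1 hr, acute), 0 to 0 (1 hr, repeated), 0 to 0 (2 hr, acute) and 0 to 1 (2 hr, repeated). The cause was not tested.

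Same-numbered mice did not clearly deviate together (r from -0.22 to 0.24 over 16 pairs, 4 over 0.1), and 5 of 13 mice correlated best with their own number. With so few mice per group, this check cannot exclude a pairing by number. A replicate block with the run covariate gave 8 calls at 1 hr, 0 at 2 hr and 0 at 4 hr, 7 between 1 and 2 hr, 3 between 2 and 4 hr, 15 over all time points and 0 for each difference between experiences. Under the block *Gh* turned to -0.55 at 4 hr, -0.000764 between 2 and 4 hr and -2.26 over all time points. Without both run0215 mice of 4 hr it turned to -1.10, -1.87 and -1.86, and without replicate 2 of 0 hr to -3.83 over all time points. In the test over all time points, where the value is the largest change against 0 hr at any time, *Btg2* turned to -0.68 with only the run0215 library of 0 hr replicate 1, -0.61 with run0215 alone and -0.90 without replicate 1 of 0 hr, where *Nr4a1* turned to -0.42 and *Pitpnm2* to 0.38. Over all mice left out in turn, these values ranged from -0.90 to 0.98 for *Btg2*, from -3.83 to 4.09 for *Gh*, from -0.42 to 0.71 for *Nr4a1* and from -0.50 to 0.38 for *Pitpnm2*.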
